A study of Mus musculus with 24 samples.

Results

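Proteasome genes were taken as all annotated mouse genes whose symbols start with Psma, Psmb, Psmc, Psmd, Psme or Psmg. The array annotation held 48 of them, and 45 had a probe with a detection p under 0.05 on 3 or more of 24 arrays, among 11317 genes tested. Psma6, Psma8 and Psmg4 had no probe that reached this limit and are not described further. Of the 45 genes, 43 encode subunits, activators or assembly factors of the proteasome, and Psmc3ip and Psme3ip1 carry the prefix as interaction partners of such proteins. Among the 43 were 6 genes of the alpha rings and 7 of the beta rings of the core particle, 6 ATPases of the regulatory particle, 3 other subunits of its base, 8 of its lid, 4 immune or thymic catalytic subunits, 4 activators and 5 assembly factors. The probe used was detected on all 24 arrays for 41 genes, on 22 for Psmd11, on 20 for Psmb11, on 19 for Psmc6 and on 8 for Psma5.

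The proteasome is the protease that breaks down proteins marked with ubiquitin. Its core particle is a barrel of stacked rings, with the alpha rings forming a gate and the beta rings carrying the catalytic sites. A regulatory particle at the end of the barrel binds ubiquitin chains, removes them and threads the substrate into the core with a ring of ATPases, and dedicated chaperones help to assemble both particles. Interferons induce alternative catalytic subunits and the PA28 activator, which are abundant in immune cells. In skeletal muscle the ubiquitin-proteasome system takes part in the breakdown of contractile proteins during atrophy.

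RNA came from triceps surae, the calf muscle group, of C57/Bl6 mice aged 6 months. Muscle was taken 3 or 14 days after a unilateral resection of the sciatic nerve, and control muscle came from littermates that had no surgery. The mice were either knockout or wild type for MuRF1, the product of Trim63, which attaches ubiquitin to proteins of heart and skeletal muscle. Each of 8 groups held 3 samples. They were denervated knockout, control knockout, denervated wild type and control wild type muscle, at day 3 and again at day 14. Effects of surgery and of nerve loss cannot be told apart here, and the knockout is labelled only as a MuRF1 knockout without its allele. Nothing in the labels ties the 3 samples of a group to separate mice, so the p-values speak only of the spread from sample to sample.

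Trim63 had normalized log2 intensities of 4.83 to 5.86 in knockout muscle, where it was detected on 6 of 12 arrays, and of 9.05 to 11.37 in wild type muscle, where it was detected on all 12. The arrays detected 15532 to 18755 of 46632 probes and had median intensities of 124.7 to 199.8. In day 3 denervated knockout muscle, replicates 2 and 3 detected 18434 and 18520 probes, while no other array of that day exceeded 17055, so counts and calls that change by much without both are given both ways. The muscle genes Acta1, Ckm, Tnnt3 and Myl1 were detected on all 24 arrays, as was the macrophage gene Adgre1, whereas the leukocyte gene Ptprc was detected on at most 1. In bulk muscle, fewer cells of a type and less RNA per cell cannot be told apart.

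Denervation raised many genes of the proteasome in both genotypes. Changes are log2 differences of normalized intensity, tested with limma, and calls rest on an adjusted p under 0.05 after Benjamini-Hochberg correction over all 11317 genes. At day 3 in knockout muscle 25 of 45 genes rose and 3 fell, where 35.8% of all genes were called, 20.2% higher and 15.6% lower. At day 3 in wild type muscle 32 rose and 2 fell, where 37.5% of all genes were called, 20% higher and 17.5% lower. At day 14 in knockout muscle 29 rose and 1 fell, where 36.7% of all genes were called, 19% higher and 17.7% lower. At day 14 in wild type muscle 20 rose and 4 fell, where 41.5% of all genes were called, 22.9% higher and 18.6% lower. The median log2 changes of the 45 genes were 0.45, 0.63, 0.58 and 0.41 in these comparisons, beside 0.04, 0.01, 0.03 and 0.05 for all genes. All 3 denervated samples lay above all 3 controls for 26 genes at day 3 in knockout, 36 at day 3 in wild type, 32 at day 14 in knockout and 25 at day 14 in wild type muscle, where 21.3%, 26.9%, 26.8% and 29.6% of all genes did so.

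Skeletal muscle markers moved beside these changes, and their part in the result was not tested. Of 17 measured out of 19 listed, 0 rose and 3 fell at day 3 in knockout muscle, 1 rose and 7 fell at day 3 in wild type, 2 rose and 7 fell at day 14 in knockout muscle and 1 rose and 4 fell at day 14 in wild type. Their summed linear intensity at day 3 was 616300 to 697600 in denervated and 670200 to 711900 in control knockout muscle, and 566900 to 598100 in denervated and 694500 to 732800 in control wild type muscle. At day 14 it was 646500 to 707800 in denervated and 771600 to 787600 in control knockout muscle, and 690200 to 704400 in denervated and 766900 to 781800 in control wild type muscle. The sum was below that of the controls in every denervated group but day 3 knockout muscle, where the ranges overlapped.

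The day 3 knockout result was repeated without replicates 2 and 3 of its denervated group, with the remaining sample assumed to vary like those of the other groups. Then 16 genes were called instead of 28, 15 higher and 1 lower, and the median over the 30 constitutive subunits was 0.70, beside 0.74 with all arrays. The alpha rings then had 5 rises of 6, the beta rings 1 of 7, the ATPases 2 of 6, the rest of the base 1 of 3 and the lid 6 of 8. The calls lost were those of Psma2, Psmb5, Psmb6, Psmc3, Psmc5, Psmc6, Psmd1, Psmd2, Psmd6 and Psmd12, which had risen with all arrays, the rise of Psme4, and the falls of Psmb10 and Psmc3ip, while Psma1 gained a call. The share of all genes called higher also fell in this fit, so the loss of calls was not particular to proteasome genes.

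The genes that rose at day 3 were largely shared between genotypes, whose comparisons use separate samples. The 24 genes that rose in both made up 24 of the 25 in knockout muscle and 24 of the 32 in wild type muscle. Of all genes, 13% rose in both at day 3. Without the 2 arrays fewer rose in knockout muscle, each of them also in wild type, and a smaller share of all genes rose in both. At day 14 the 19 shared genes made up 19 of 29 in knockout muscle and 19 of 20 in wild type muscle, and the share of all genes was not counted there. In all 4 comparisons 15 genes rose, where 6.76% of all genes did so, namely Psma2, Psma4 and Psma7 of the alpha rings, Psmb3 and Psmb5 of the beta rings, the ATPases Psmc3, Psmc4 and Psmc5, the base subunit Psmd4 and the lid subunits Psmd3, Psmd7, Psmd8, Psmd11, Psmd13 and Psmd14. Without the 2 arrays 11 rose in all 4, where 5.55% of all genes did so, as Psma2, Psmb5, Psmc3 and Psmc5 lost the day 3 knockout call. The day 3 knockout calls of Psmd3 and Psmd13 were lost with the number of detected probes as a covariate. Among the 15, Psmb3, Psmc4, Psmc5, Psmd4, Psmd7 and Psmd13 had more than 1 kept probe. Each of these had a probe not called higher at day 14 in wild type muscle. For Psmd13 that probe gave a log2 change of 0.07, and that of Psmd4 was detected on 4 of 24 arrays. No comparison of denervated with control muscle called Psmb7, Psmb9, Psmb11, Psmd9 or Psmg3. Of the 30 constitutive subunits of core and regulatory particle, 23 had their highest group mean in day 3 denervated wild type muscle.

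**Figure D1:**
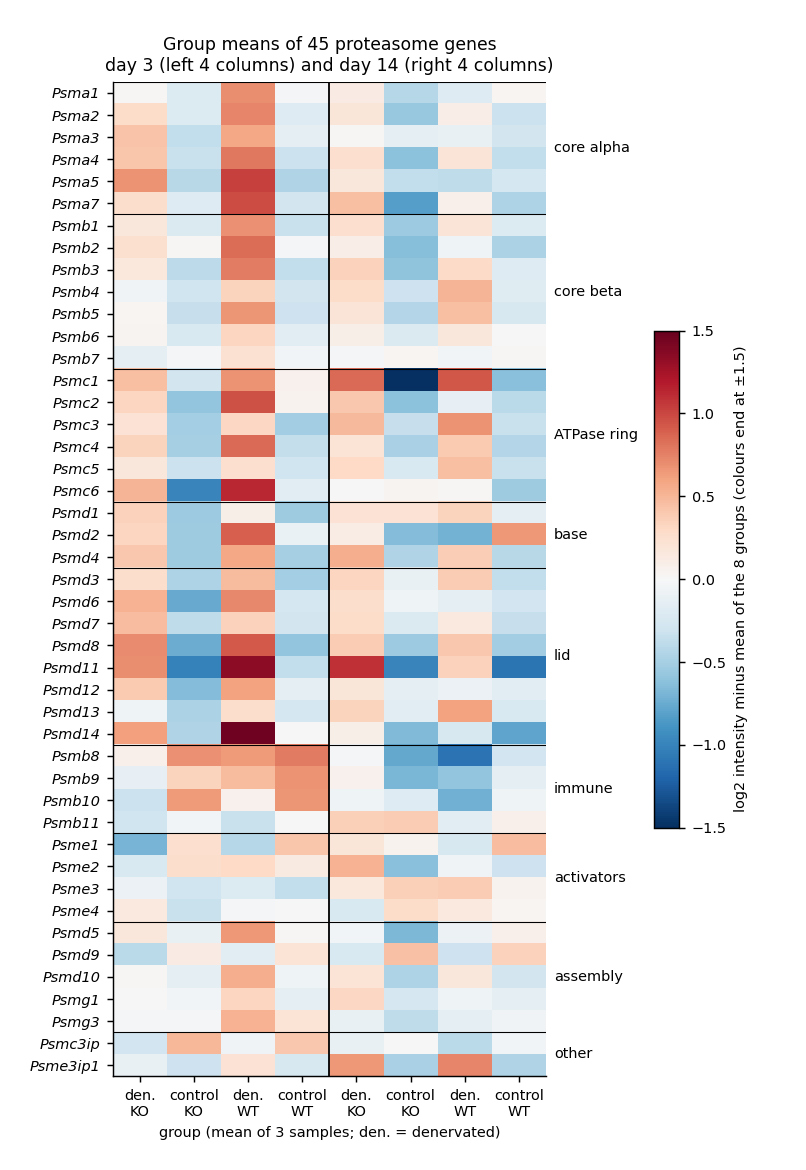
Group means of the 45 genes, each minus the mean of that gene's 8 group means on the log2 scale, with genes in rows by class and colours ending at 1.5 in either direction. Columns run from denervated to control muscle within knockout and wild type, for day 3 on the left and day 14 on the right. Of the 30 constitutive core and regulatory subunits, 27 lie above their mean in day 3 denervated knockout, 30 in day 3 denervated wild type, 28 in day 14 denervated knockout and 20 in day 14 denervated wild type muscle, and 1 to 3 in each control group.

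Promoter sequences are shown for some of the genes whose denervation response is described in detail. Each carries a motif of a factor known to act on proteasome genes. They were picked by hand, and other such genes, Psmb3 and Psmd9 among them, are not shown. The RefSeq table on the build GRCm38.p6 held a promoter for 39 of the 45 genes. The 250 bases before each start were searched on both strands for 4 motifs. These were TGACNNNGC, the antioxidant response element bound by Nfe2l1 and Nfe2l2, CCAAT, the box bound by the NF-Y factor, GAAA, any 2 bases and GAAA again, the interferon-stimulated response element, and TTCNNNGAA, the gamma-activated site bound by STAT factors. Capitals mark the match, and no match printed here overlaps a match to another of these motifs. The promoters of the catalytic subunit Psmb5 (chr14:54617996-54618245, minus strand) and the ATPase Psmc6 (chr14:45329574-45329823, plus strand) hold an antioxidant response element, which reads on the opposite strand in Psmc6. Those of the alpha subunit Psma7 (chr2:180042465-180042714, minus strand) and the deubiquitinase Psmd14 (chr2:61711444-61711693, plus strand) hold a CCAAT box, on the opposite strand in Psmd14. That of the immune subunit Psmb8 (chr17:34197945-34198194, plus strand) holds a gamma-activated site, which reads alike on both strands.
Psmb5: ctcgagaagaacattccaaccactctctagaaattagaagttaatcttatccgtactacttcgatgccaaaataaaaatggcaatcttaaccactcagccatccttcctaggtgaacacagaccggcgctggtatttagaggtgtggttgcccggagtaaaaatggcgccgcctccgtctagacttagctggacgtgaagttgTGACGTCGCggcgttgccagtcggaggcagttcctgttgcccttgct
Psmc6: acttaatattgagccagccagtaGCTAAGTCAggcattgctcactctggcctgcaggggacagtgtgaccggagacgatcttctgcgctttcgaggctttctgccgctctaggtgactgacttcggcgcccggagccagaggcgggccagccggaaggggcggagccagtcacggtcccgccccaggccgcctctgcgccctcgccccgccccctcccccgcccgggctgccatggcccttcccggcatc
Psma7: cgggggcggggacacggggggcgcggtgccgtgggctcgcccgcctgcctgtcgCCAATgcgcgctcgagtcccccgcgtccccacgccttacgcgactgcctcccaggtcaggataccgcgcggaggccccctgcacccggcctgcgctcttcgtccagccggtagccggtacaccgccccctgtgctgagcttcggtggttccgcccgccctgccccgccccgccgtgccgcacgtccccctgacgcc
Psmd14: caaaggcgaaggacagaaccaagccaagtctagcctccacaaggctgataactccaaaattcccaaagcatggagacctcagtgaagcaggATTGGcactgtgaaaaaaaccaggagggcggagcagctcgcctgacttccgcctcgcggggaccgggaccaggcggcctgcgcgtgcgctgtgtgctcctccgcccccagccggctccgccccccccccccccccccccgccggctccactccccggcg
Psmb8: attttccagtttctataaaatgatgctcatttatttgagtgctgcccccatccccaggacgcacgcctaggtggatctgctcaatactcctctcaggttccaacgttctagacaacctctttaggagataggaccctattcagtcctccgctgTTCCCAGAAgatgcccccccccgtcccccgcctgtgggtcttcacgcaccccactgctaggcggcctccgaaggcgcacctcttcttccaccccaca

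The antioxidant response element stood in 5 of 39 promoters, those of Psmb5, Psmb6, Psmc6, Psmd12 and Psmd9, which is 12.8% beside 10.2% of 32851 promoters in the table. The CCAAT box stood in 15 of 39 (38.5%, beside 33.8% of all promoters) and the gamma-activated site in Psmb8 and Psmg1 (5.13%, beside 7.02%). The interferon-stimulated response element stood in Psmb3, Psmd4 and Psmd9 (7.69%, beside 2.98%). These matches describe letters in these windows.

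In the alpha rings, which gate entry to the core, 5 of 6 genes rose at day 3 in knockout muscle (median log2 change 0.61) and all 6 in wild type (1.02), and the medians were 0.47 and 0.82 with Psma5, undetected in controls, at its bound. At day 14, 5 of 6 rose in knockout muscle (0.65) and 3 of 6 in wild type (0.30). Psma7, an alpha subunit, rose in all 4 comparisons. At day 3 Psma7 had normalized log2 intensities of 13.21, 12.85 and 12.76 in denervated against 12.51, 12.53 and 12.42 in control knockout muscle, and of 13.66, 13.59 and 13.72 in denervated against 12.36, 12.39 and 12.47 in control wild type muscle. At day 14 Psma7 stood at 13.04, 13.20 and 13.14 in denervated against 11.87, 11.89 and 11.80 in control knockout muscle, and at 12.87, 12.65 and 12.72 in denervated against 12.20, 12.45 and 11.99 in control wild type muscle. Every denervated sample lay above the controls of its genotype and day, the highest being the 3 wild type samples of day 3. Psma7 was 1.37-fold higher at day 3 in knockout muscle (log2 change 0.45 ± 0.13 SE, adjusted p = 0.00793) and 2.38-fold in wild type (1.25, adjusted p = 1.01e-07). At day 14 it was 2.42-fold higher in knockout muscle (adjusted p = 8.05e-08) and 1.45-fold in wild type (adjusted p = 0.00169).

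Psma1, another alpha subunit, rose at day 3 in wild type and at day 14 in knockout muscle. At day 3 Psma1 stood at 13.06, 12.29 and 12.64 in denervated against 12.27, 12.41 and 12.61 in control knockout muscle, and at 13.31, 13.36 and 13.33 in denervated against 12.67, 12.58 and 12.59 in control wild type muscle. At day 14 Psma1 stood at 12.59, 12.99 and 12.71 in denervated against 12.35, 12.17 and 12.12 in control knockout muscle, and at 12.56, 12.37 and 12.39 in denervated against 12.51, 12.87 and 12.64 in control wild type muscle. Denervated and control samples overlapped at day 3 in the knockout, where 1 denervated sample reached 13.06, and at day 14 in the wild type, where 1 denervated sample lay among the controls and 2 below them. The log2 changes were 0.23 and 0.72 at day 3 in knockout and wild type muscle (adjusted p = 0.278 and 0.00103) and 0.55 and -0.23 at day 14 (0.0087 and 0.274), with an SE of 0.16. Without replicate 2 of the day 14 denervated knockout group the change there was 0.44 (adjusted p = 0.0582).

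Psma5, also of the alpha rings, was near the detection limit in control muscle. At day 3 Psma5 stood at 6.18, 5.97 and 5.76 in denervated against 4.94, 4.79 and 4.87 in control knockout muscle, and at 6.32, 6.13 and 6.51 in denervated against 4.78, 4.89 and 4.85 in control wild type muscle. At day 14 Psma5 stood at 4.89, 5.83 and 5.65 in denervated against 4.67, 5.26 and 4.83 in control knockout muscle, and at 5.08, 4.81 and 4.84 in denervated against 5.02, 4.83 and 5.24 in control wild type muscle. It was detected on all 3 arrays of both day 3 denervated groups and on 2 of 3 in day 14 denervated knockout muscle, and on no array of the other groups. Set against the dimmest detected signal of each control array, it was at least 1.11-fold higher at day 3 in knockout muscle (adjusted p = 0.000183) and at least 1.4-fold in wild type (adjusted p = 4.28e-06). It was called higher at day 14 in knockout muscle (adjusted p = 0.0379), with no size given since its mean lay below that limit. This call was lost in 4 of the 6 fits that left out 1 array of that comparison, those without replicates 1 or 3 of the control or replicates 2 or 3 of the denervated group (adjusted p up to 0.217). Psma2 and Psma4 rose in all 4 comparisons, by 0.42 to 0.92 and 0.57 to 1.12 on the log2 scale, and Psma3 rose at day 3 (0.80 in knockout and 0.73 in wild type muscle).

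Among the beta rings 3 of 7 genes rose at day 3 in knockout muscle (median log2 change 0.28) and 6 of 7 in wild type (0.86). At day 14, 6 of 7 rose in knockout muscle (0.63) and 4 of 7 in wild type (0.42). Psmb3, a structural beta subunit, showed the largest change of the class. At day 3 Psmb3 stood at 14.17, 13.84 and 13.88 in denervated against 13.44, 13.49 and 13.33 in control knockout muscle, and at 14.58, 14.53 and 14.61 in denervated against 13.53, 13.46 and 13.34 in control wild type muscle. At day 14 Psmb3 stood at 13.97, 14.26 and 14.25 in denervated against 13.16, 13.26 and 13.18 in control knockout muscle, and at 14.31, 13.96 and 14.04 in denervated against 13.54, 13.78 and 13.52 in control wild type muscle. No denervated sample overlapped the controls of its genotype and day. Psmb3 was 1.46-fold higher in knockout and 2.19-fold in wild type muscle at day 3 (adjusted p = 0.00174 and 3.02e-07), and 1.94-fold and 1.4-fold at day 14 (adjusted p = 3.33e-06 and 0.00314). Its second probe gave changes of 0.05 to 1.12, and the mean of both probes was not called at day 14 in wild type muscle.

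The 3 constitutive catalytic subunits differed. Psmb5, the chymotrypsin-like subunit, rose in all 4 comparisons. At day 3 Psmb5 stood at 13.52, 13.47 and 13.38 in denervated against 13.12, 13.14 and 12.98 in control knockout muscle, and at 14.15, 14.11 and 13.99 in denervated against 13.06, 13.23 and 13.04 in control wild type muscle. At day 14 Psmb5 stood at 13.50, 13.68 and 13.68 in denervated against 12.85, 13.07 and 13.06 in control knockout muscle, and at 14.12, 13.80 and 13.74 in denervated against 13.24, 13.20 and 13.12 in control wild type muscle. All denervated samples lay above their controls, by the smallest margin in day 3 knockout muscle. The log2 changes were 0.37 and 0.97 at day 3 (adjusted p = 0.0154 in knockout and 8.96e-07 in wild type muscle) and 0.63 and 0.70 at day 14 (0.000193 and 4.98e-05). The day 3 knockout call was lost without replicate 3 of the control knockout group (adjusted p = 0.0563). Psmb6, the caspase-like subunit, rose by less, at 0.28 and 0.49 at day 3 and 0.31 at day 14 in knockout muscle, with 0.18 and no call at day 14 in wild type. Its day 3 knockout call was lost whichever of the 6 arrays was left out, with an adjusted p of up to 0.0948. Psmb7, the trypsin-like subunit, changed by -0.11 to 0.27 and was not called in any of the 4. Of the structural subunits Psmb1, Psmb2 and Psmb4, all rose at day 3 in wild type (1.02, 0.86 and 0.62) and at day 14 in knockout muscle (0.80, 0.74 and 0.58), and none was called at day 3 in knockout muscle (0.39, 0.22 and 0.25).

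**Figure D2:**
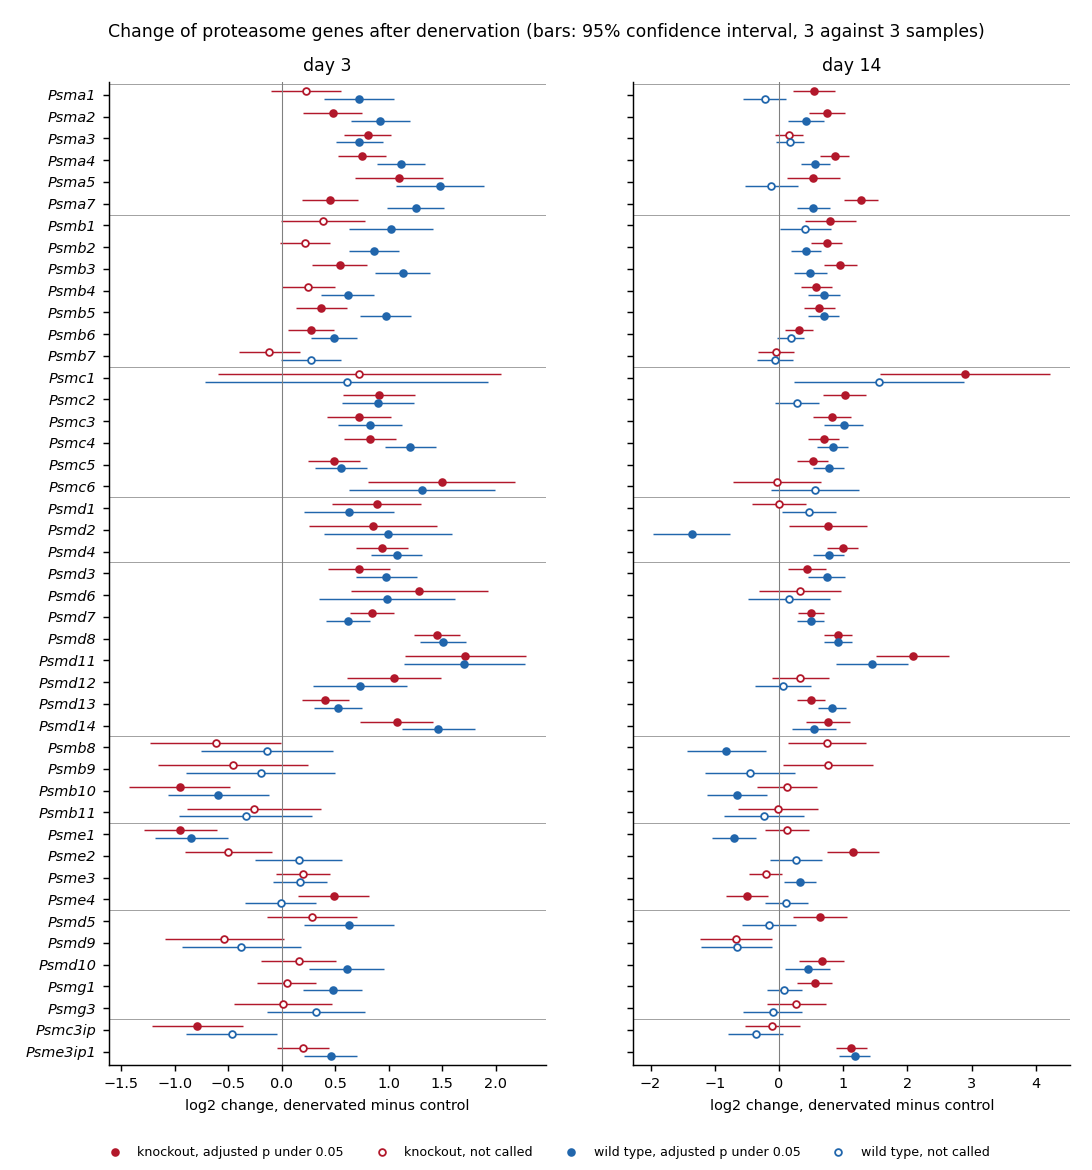
Log2 change of denervated minus control muscle for each gene, with its 95% confidence interval from limma, in knockout (red) and wild type (blue), for day 3 and day 14. Filled points are called at an adjusted p under 0.05. At day 3 the wild type points of most core subunits lie to the right of the knockout points, and the immune subunits and Psme1 lie at or left of 0.

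In the ATPase ring of the regulatory particle, which unfolds substrates, 5 of 6 genes rose at day 3 in either genotype (medians 0.78 in knockout and 0.86 in wild type muscle). At day 14, 5 of 6 rose in knockout muscle (0.76) and 3 of 6 in wild type (0.81). Psmc2 differed between genotypes at day 14. At day 3 Psmc2 stood at 9.82, 9.29 and 9.62 in denervated against 8.64, 8.60 and 8.76 in control knockout muscle, and at 10.26, 10.08 and 10.29 in denervated against 9.34, 9.24 and 9.35 in control wild type muscle. At day 14 Psmc2 stood at 9.23, 9.75 and 10.02 in denervated against 8.69, 8.73 and 8.52 in control knockout muscle, and at 9.27, 9.15 and 9.004 in denervated against 8.72, 8.91 and 8.95 in control wild type muscle. Denervated samples lay above all controls of their genotype in each case, by the smallest margin at day 14 in the wild type. The log2 changes were 0.91, 0.90 and 1.02 at day 3 in knockout, day 3 in wild type and day 14 in knockout muscle (adjusted p = 0.000156, 0.000141 and 3.81e-05), and 0.28 at day 14 in wild type (0.18).

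Psmc1 showed the largest change of any of the 45 genes, and 1 control array set much of its size. At day 3 Psmc1 stood at 11.05, 10.96 and 11.27 in denervated against 10.31, 10.28 and 10.51 in control knockout muscle, and at 11.53, 11.25 and 11.19 in denervated against 10.92, 10.63 and 10.59 in control wild type muscle. At day 14 Psmc1 stood at 11.21, 11.55 and 11.71 in denervated against 5.97, 10.35 and 9.43 in control knockout muscle, and at 11.67, 11.59 and 11.47 in denervated against 10.73, 9.17 and 10.15 in control wild type muscle. Denervated samples lay above the controls of their genotype and day throughout, and replicate 1 of the day 14 control knockout group lay far below every other sample. The change at day 14 in knockout muscle was 2.90 ± 0.64 SE on the log2 scale (adjusted p = 0.00107), and 1.60 without that array (adjusted p = 0.000508). The changes of 0.73, 0.61 and 1.56 in the other comparisons were not called (adjusted p = 0.407, 0.489 and 0.0549). The 8 groups share 1 estimate of the spread of a gene, so the array at 5.97 also widened the SE in these comparisons. Psmc1 was the ATPase not called at day 3 in either genotype.

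Psmc6, the ATPase whose promoter is printed above with an antioxidant response element, rose at day 3 in both genotypes and was not called at day 14 (-0.04 in knockout and 0.56 in wild type muscle on the log2 scale, adjusted p = 0.943 and 0.187). At day 3 Psmc6 stood at 6.18, 7.04 and 7.17 in denervated against 5.27, 5.33 and 5.31 in control knockout muscle, and at 7.55, 7.44 and 7.28 in denervated against 5.93, 6.29 and 6.12 in control wild type muscle. At day 14 Psmc6 stood at 5.49, 6.32 and 7.05 in denervated against 6.09, 6.53 and 6.35 in control knockout muscle, and at 7.10, 5.90 and 5.93 in denervated against 5.47, 5.68 and 6.10 in control wild type muscle. The groups overlapped at day 14 in both genotypes. No array of the day 3 control knockout group detected it, so its rise there is at least 1.97-fold (adjusted p = 0.00125), and in wild type it was 2.48-fold (adjusted p = 0.0033). Psmc3, Psmc4 and Psmc5 rose in all 4 comparisons, by 0.73 to 1.01, 0.69 to 1.20 and 0.49 to 0.78 on the log2 scale. At day 14 in wild type muscle the second probes of Psmc4 and Psmc5 gave 0.34 and 0.21 and were not called.

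Of the 3 base subunits that are not ATPases, all rose at day 3 in either genotype (1 of 3 in knockout muscle without the 2 arrays of most detected probes), 2 rose at day 14 in knockout muscle, and at day 14 in wild type 1 rose and 1 fell. Psmd2, the scaffold that docks shuttle factors and the deubiquitinase Usp14, was the one that fell. At day 3 Psmd2 stood at 9.30, 8.60 and 9.45 in denervated against 7.75, 7.78 and 9.25 in control knockout muscle, and at 10.06, 9.40 and 9.59 in denervated against 8.66, 8.85 and 8.57 in control wild type muscle. At day 14 Psmd2 stood at 8.90, 8.79 and 9.03 in denervated against 8.32, 8.02 and 8.08 in control knockout muscle, and at 8.15, 8.12 and 7.98 in denervated against 9.68, 9.46 and 9.18 in control wild type muscle. Denervated samples lay above their controls in all but 2 cases, namely day 3 knockout muscle, where 1 control reached 9.25, and day 14 wild type muscle, where all 3 lay more than 1 log2 unit below the controls. At day 14 in wild type muscle Psmd2 was 2.56-fold lower (log2 change -1.36 ± 0.29 SE, adjusted p = 0.000666), and this call held in every alternative run, at -1.49 to -1.24 when 1 array was left out.

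The rises of Psmd2 were less stable. They were 0.85 at day 3 in knockout muscle (adjusted p = 0.0252), 1.00 at day 3 in wild type (0.00941) and 0.76 at day 14 in knockout muscle (0.0432). The day 14 knockout call was lost whichever of its 6 arrays was left out, with an adjusted p of up to 0.116, and the day 3 knockout call was lost in 4 of 6 such fits, with a change of 0.60 to 1.35. The 4 were those without replicates 1 or 2 of the control and without replicates 1 or 3 of the denervated group. The day 3 wild type call was lost without replicate 1 of the denervated group (0.81, adjusted p = 0.0566). Psmd2 was read by 1 probe. Psmd4, the base subunit that binds ubiquitin chains, rose by 0.78 to 1.07 in the 4 comparisons, but its second probe gave -0.43 at day 14 in wild type muscle and was called lower there. That probe was near the detection limit, detected on 4 of 24 arrays with a mean of 5.39, beside 14.57 for the probe used. Psmd1, the other scaffold, rose at day 3 (0.89 in knockout and 0.63 in wild type muscle) and was not called at day 14 (0.00 and 0.46).

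All 8 lid subunits rose at day 3 in either genotype (median log2 changes 1.06 in knockout and 0.98 in wild type muscle), and 6 of 8 rose at day 14 in either genotype (0.50 and 0.64). Psmd11, a lid scaffold subunit, was at least 2-fold higher in all 4 comparisons. At day 3 Psmd11 stood at 7.39, 7.35 and 7.97 in denervated against 5.91, 5.95 and 5.69 in control knockout muscle, and at 8.22, 8.35 and 8.06 in denervated against 6.92, 5.96 and 6.63 in control wild type muscle. At day 14 Psmd11 stood at 7.52, 8.11 and 8.25 in denervated against 6.08, 5.67 and 5.88 in control knockout muscle, and at 7.91, 7.10 and 6.66 in denervated against 5.83, 5.94 and 5.54 in control wild type muscle. No denervated sample overlapped a control of its genotype and day. It was 3.29-fold and 3.26-fold higher at day 3 in knockout and wild type muscle (adjusted p = 4.56e-05 and 3.85e-05) and 4.24-fold and 2.73-fold at day 14 (3.77e-06 and 0.000198). Its probe was detected on 2 of 3 arrays in the day 3 control knockout and day 14 control wild type groups.

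Psmd8, another lid subunit, rose in all 4 comparisons. At day 3 Psmd8 stood at 14.82, 14.92 and 14.87 in denervated against 13.34, 13.43 and 13.47 in control knockout muscle, and at 15.17, 15.02 and 15.04 in denervated against 13.74, 13.41 and 13.56 in control wild type muscle. At day 14 Psmd8 stood at 14.58, 14.50 and 14.55 in denervated against 13.72, 13.65 and 13.48 in control knockout muscle, and at 14.47, 14.58 and 14.63 in denervated against 13.69, 13.59 and 13.63 in control wild type muscle. The day 3 denervated samples were the highest of all in both genotypes. Psmd8 was higher by 1.45 and 1.51 at day 3 (adjusted p = 9.83e-10 in knockout and 3.62e-10 in wild type muscle) and by 0.92 and 0.92 at day 14 (5.43e-07 and 4.13e-07), each ± 0.10 SE on the log2 scale.

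Psmd14, the lid enzyme that cuts ubiquitin chains off the substrate, rose in all 4 comparisons as well. At day 3 Psmd14 stood at 11.39, 11.20 and 11.11 in denervated against 10.28, 10.30 and 9.89 in control knockout muscle, and at 12.13, 12 and 12.08 in denervated against 10.73, 10.60 and 10.49 in control wild type muscle. At day 14 Psmd14 stood at 10.32, 10.97 and 10.82 in denervated against 9.89, 9.95 and 9.998 in control knockout muscle, and at 10.71, 10.20 and 10.20 in denervated against 9.92, 9.69 and 9.85 in control wild type muscle. All denervated samples were above their controls. The log2 changes were 1.07 and 1.47 at day 3 (adjusted p = 2.91e-05 in knockout and 4.09e-07 in wild type muscle) and 0.76 and 0.55 at day 14 (0.000962 and 0.0105), the last lost without replicate 1 of its denervated group (0.38, adjusted p = 0.086). Psmd7, the partner of Psmd14, rose in all 4 (0.49 to 0.84), but its 3 probes spanned -0.66 to 0.49 at day 14 in wild type muscle, 2 called higher and 1 lower. Psmd6 and Psmd12 rose at day 3 (1.29 and 1.05 in knockout, 0.98 and 0.74 in wild type muscle) and were not called at day 14 (0.06 to 0.33). In knockout muscle a second probe of Psmd6 was not called at day 3 (0.32) and was called higher at day 14 (0.66). In wild type muscle it was called higher at day 3 (0.92) and not called at day 14 (0.51). The pattern of Psmd6 in the knockout thus depends on the probe.

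**Figure D3:**
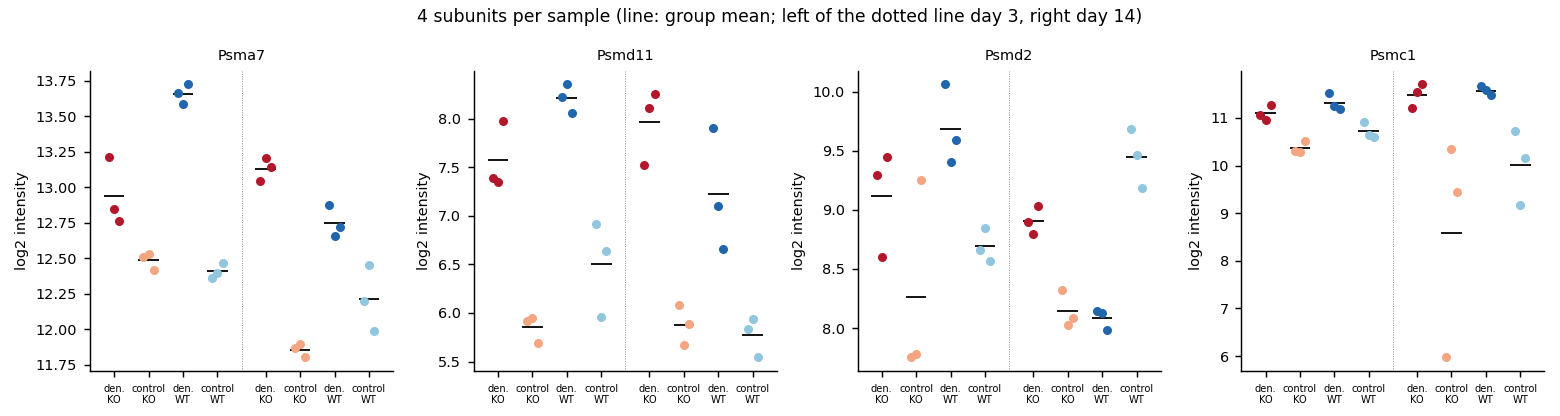
Normalized log2 intensity of Psma7, Psmd11, Psmd2 and Psmc1 in each of the 24 samples, with group means as bars, denervated left of control within each genotype and day. Psmd2 in day 14 denervated wild type muscle lies below its controls, and Psmc1 in 1 day 14 control knockout sample lies at 5.97.

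Few of the interferon-inducible genes were called higher. Psmb8, Psmb9 and Psmb10, which replace Psmb5, Psmb6 and Psmb7 in the immunoproteasome, and the PA28 subunits Psme1 and Psme2 gave 0 calls higher and 2 lower of 5 at day 3 in either genotype (median log2 changes -0.62 in knockout and -0.20 in wild type muscle, but 0.03 and 0.10 after median centring of the arrays, and 0.02 in knockout muscle without replicates 2 and 3 of the denervated group). At day 14, 1 of 5 rose and none fell in knockout muscle (0.75), whereas none rose and 3 fell in wild type (-0.66). With median centring the counts were 2 higher and 0 lower in knockout and 1 higher and 3 lower in wild type muscle at day 14.

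Psmb10 fell in 3 of 4 comparisons, while its constitutive counterpart Psmb7 passed in none. At day 3 Psmb10 stood at 10.35, 9.82 and 9.17 in denervated against 10.90, 11.02 and 10.28 in control knockout muscle, and at 9.95, 10.34 and 10.21 in denervated against 10.49, 10.76 and 11.02 in control wild type muscle. At day 14 Psmb10 stood at 10.31, 9.97 and 9.82 in denervated against 9.96, 9.97 and 9.79 in control knockout muscle, and at 9.40, 9.36 and 9.38 in denervated against 10.03, 9.99 and 10.08 in control wild type muscle. Groups overlapped at day 3 and day 14 in the knockout and lay apart in the wild type, where the 3 day 14 denervated samples were the lowest of that genotype. The log2 changes were -0.95 and -0.59 at day 3 (adjusted p = 0.00238 in knockout and 0.0457 in wild type muscle) and 0.12 and -0.66 at day 14 (0.709 and 0.0246). The day 3 knockout call was lost with median centring (-0.32, adjusted p = 0.183) and without replicates 2 and 3 of the denervated group (-0.39, adjusted p = 0.33). The wild type calls were lost in 4 of 6 fits without 1 array at day 3, with an adjusted p of up to 0.177 and changes of -0.72 to -0.46, and in 5 of 6 at day 14, where it reached 0.0626. At day 3 they were those without replicates 2 or 3 of the control or 1 or 3 of the denervated group.

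Psmb8 fell at day 14 in wild type muscle. At day 3 Psmb8 stood at 9.67, 9.07 and 8.13 in denervated against 9.44, 9.97 and 9.31 in control knockout muscle, and at 9.33, 9.76 and 9.48 in denervated against 9.67, 9.40 and 9.90 in control wild type muscle. At day 14 Psmb8 stood at 9.54, 8.55 and 8.50 in denervated against 8.12, 7.96 and 8.27 in control knockout muscle, and at 7.69, 7.87 and 7.80 in denervated against 8.69, 8.42 and 8.70 in control wild type muscle. At day 14 the denervated samples were all above the controls in the knockout and all below them in the wild type, and at day 3 both genotypes overlapped. The day 14 changes were 0.75 in knockout (adjusted p = 0.0519) and -0.82 in wild type muscle (0.0298, up to 0.0803 and lost in 5 of 6 fits without 1 array), with -0.62 and -0.14 at day 3 (0.11 and 0.751). All 3 probes of Psmb8 were called lower at day 14 in wild type muscle, at -1.60 to -0.80. At day 14 in knockout muscle the 3 probes gave -0.15 to 0.75 with no call, so the direction there depends on the probe. Its constitutive counterpart Psmb5 rose there by 0.70.

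Psmb9 was not called in any denervation comparison, with changes of -0.45 and -0.20 at day 3 and 0.76 and -0.45 at day 14 in knockout and wild type muscle (adjusted p = 0.316, 0.683, 0.0831 and 0.305). Its values at day 14 were 9.37, 8.18 and 8.07 in denervated against 7.86, 7.64 and 7.84 in control knockout muscle, and 7.88, 7.92 and 7.84 in denervated against 8.18, 8.18 and 8.63 in control wild type muscle. The groups did not overlap in either genotype, and the knockout samples lay above and the wild type samples below their controls. Psmb11, the thymus-specific subunit, was detected on 20 of 24 arrays and changed by -0.34 to -0.02 with no call.

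Psme1, the PA28 alpha subunit, fell in the same 3 comparisons as Psmb10. At day 3 Psme1 stood at 11.14, 10.90 and 10.58 in denervated against 11.87, 11.997 and 11.60 in control knockout muscle, and at 11.09, 11.30 and 11.03 in denervated against 11.83, 11.95 and 12.17 in control wild type muscle. At day 14 Psme1 stood at 11.90, 11.68 and 11.68 in denervated against 11.65, 11.59 and 11.63 in control knockout muscle, and at 11.20, 11.29 and 11.51 in denervated against 11.87, 12.39 and 11.81 in control wild type muscle. At day 14 the knockout samples lay just above their controls and the wild type samples below theirs. It was lower by 1.93-fold in knockout and 1.79-fold in wild type muscle at day 3 (adjusted p = 0.000131 and 0.000358) and by 1.62-fold in wild type at day 14 (0.00178), with a log2 change of 0.13 in day 14 knockout muscle (0.581). The second probe of Psme1 gave 0.50 in day 14 knockout muscle and was called higher there. Both probes were called lower in the other comparisons. The day 3 knockout call held without replicates 2 and 3 of the denervated group (-0.68, adjusted p = 0.0379) and was lost with the number of detected probes as a covariate (-0.43, adjusted p = 0.215).

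Psme2, the PA28 beta subunit and partner of Psme1, rose at day 14 in knockout muscle. At day 3 Psme2 stood at 10.44, 9.62 and 9.63 in denervated against 10.31, 10.85 and 10.02 in control knockout muscle, and at 10.27, 10.53 and 10.47 in denervated against 10.20, 10.24 and 10.35 in control wild type muscle. At day 14 Psme2 stood at 10.56, 10.85 and 10.55 in denervated against 9.44, 9.49 and 9.58 in control knockout muscle, and at 10.12, 10.03 and 10.09 in denervated against 9.64, 9.99 and 9.80 in control wild type muscle. Each day 14 denervated sample was above its controls, with the wider gap in the knockout. The rise was 2.22-fold in knockout muscle (log2 change 1.15 ± 0.20 SE, adjusted p = 8.78e-05), and the changes of -0.50, 0.16 and 0.27 in the other comparisons were not called (0.0515, 0.565 and 0.301).

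Leukocyte genes moved with these subunits in part, and their part in the result was not tested. Of 18 leukocyte markers measured out of 26 listed, 2 rose at day 3 in knockout muscle (median log2 change 0.49), 14 at day 3 in wild type (1.22), 13 at day 14 in knockout muscle (1.10) and 4 at day 14 in wild type (0.15), and none fell. Their summed linear intensity at day 3 was 19740 to 39890 in denervated and 10750 to 21490 in control knockout muscle, and 33310 to 39930 in denervated and 9385 to 10290 in control wild type muscle. At day 14 it was 20150 to 23540 in denervated and 6527 to 7684 in control knockout muscle, and 11480 to 20280 in denervated and 7982 to 10360 in control wild type muscle. The sum was above that of the controls in every denervated group but day 3 knockout muscle, where the ranges overlapped. Its range was highest in day 3 denervated wild type muscle, where no interferon-inducible subunit rose, although Psme2 did so after median centring (0.44, adjusted p = 0.0278).

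Of 18 antigen-presentation and interferon-induced genes measured out of 25 listed, 2 rose and 1 fell at day 3 in knockout muscle (median -0.15), and 0 rose and 2 fell at day 3 in wild type (-0.11). At day 14, 3 rose and 1 fell in knockout muscle (0.27), and 0 rose and 5 fell in wild type (-0.28). The peptide transporter genes Tap1 and Tap2 and Nlrc5, the activator of class I genes, were higher by 1.02, 0.53 and 0.83 at day 14 in knockout muscle, and Ifit2 was lower by -0.58. In day 14 wild type muscle the class I light chain B2m (-0.68), the interferon regulatory factors Irf1 (-0.81) and Irf9 (-0.60), and the interferon-induced Gbp3 (-0.80) and Ifit3 (-2.49) fell. The list was chosen with earlier results of these data known.

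**Figure D4:**
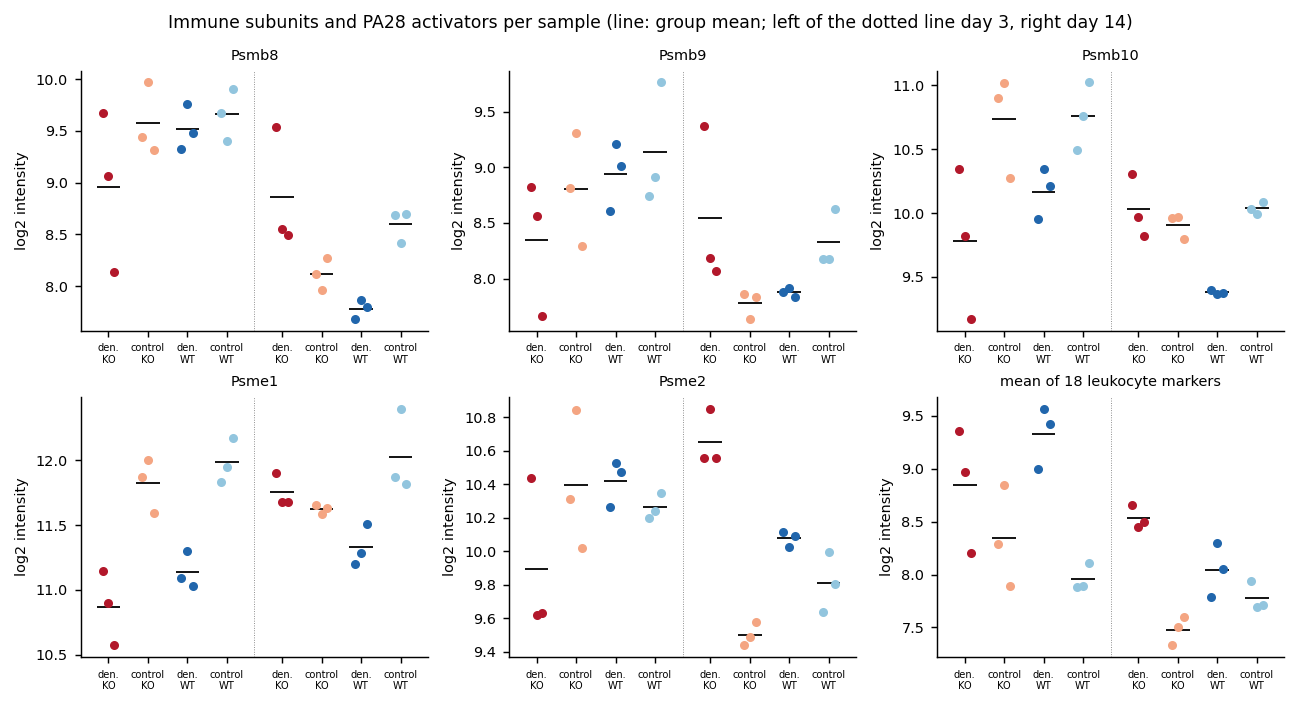
Normalized log2 intensity of Psmb8, Psmb9, Psmb10, Psme1 and Psme2, and the mean of 18 leukocyte markers, in each of the 24 samples, with group means as bars and denervated left of control within each genotype and day. At day 14 Psmb8, read by its brightest probe, lies above its controls in denervated knockout muscle and below them in denervated wild type muscle.

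The other activators changed by less. Psme3, the nuclear PA28 gamma, was higher at day 14 in wild type muscle. At day 3 Psme3 stood at 9.72, 9.82 and 10.24 in denervated against 9.79, 9.65 and 9.73 in control knockout muscle, and at 9.79, 9.79 and 9.87 in denervated against 9.60, 9.61 and 9.73 in control wild type muscle. At day 14 Psme3 stood at 10.26, 10.14 and 10.11 in denervated against 10.27, 10.39 and 10.48 in control knockout muscle, and at 10.33, 10.33 and 10.54 in denervated against 10.10, 10.12 and 10.002 in control wild type muscle. At day 14 the denervated samples were below their controls in the knockout and above them in the wild type. The day 14 changes were -0.21 in knockout (adjusted p = 0.194) and 0.33 in wild type muscle (0.0355, lost in 4 of 6 fits without 1 array, at up to 0.149), with 0.20 and 0.17 at day 3.

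Psme4, the PA200 activator, rose at day 3 and fell at day 14 in knockout muscle. At day 3 Psme4 stood at 11.03, 11.67 and 11.88 in denervated against 11.002, 10.96 and 11.15 in control knockout muscle, and at 11.49, 11.42 and 11.15 in denervated against 11.42, 11.28 and 11.40 in control wild type muscle. At day 14 Psme4 stood at 11.20, 11.10 and 11.14 in denervated against 11.69, 11.70 and 11.56 in control knockout muscle, and at 11.69, 11.54 and 11.33 in denervated against 11.39, 11.45 and 11.36 in control wild type muscle. The day 3 rise of 0.49 (adjusted p = 0.0213) rests on replicates 2 and 3 of the denervated knockout group, and without both it was -0.013 with no call. It was also lost without either of these 2 alone and without replicate 1 or 2 of the control group, with changes of 0.31 to 0.73 when 1 array was left out. The day 14 change was -0.50 (0.0173, up to 0.053 and lost in 3 of 6 fits without 1 array), and the wild type changes were -0.01 and 0.12 with no call.

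Of the 5 assembly factors none was called by limma at day 3 in knockout muscle (median log2 change 0.05, 0 at an unadjusted p under 0.05), 3 rose at day 3 in wild type (0.48), 3 rose at day 14 in knockout muscle (0.56) and 1 rose at day 14 in wild type (-0.10). Psmd10, a chaperone of the base, rose by 0.61 at day 3 in wild type, 0.67 at day 14 in knockout and 0.44 at day 14 in wild type muscle. The last call did not hold under every alternative. Its 3 probes gave -0.02 to 0.44 at day 14 in wild type muscle, with 1 called higher. In each of the other rises 2 of the 3 probes were called higher. Psmd5, another base chaperone, rose by 0.63 at day 3 in wild type and by 0.63 at day 14 in knockout muscle, and Psmg1, a chaperone of the core, by 0.48 and 0.56 in the same comparisons. Psmg3, also a core chaperone, changed by -0.10 to 0.32 with no call. Psmd9, a base chaperone, was the assembly factor with negative values throughout.

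At day 3 Psmd9 stood at 7.51, 6.81 and 7.16 in denervated against 7.78, 7.62 and 7.68 in control knockout muscle, and at 7.03, 7.60 and 7.55 in denervated against 8.08, 7.70 and 7.54 in control wild type muscle. At day 14 Psmd9 stood at 7.27, 7.54 and 7.19 in denervated against 8.05, 7.76 and 8.20 in control knockout muscle, and at 7.71, 6.94 and 7.10 in denervated against 7.54, 7.51 and 8.68 in control wild type muscle. Denervated samples lay below all controls in both days of the knockout and overlapped them in the wild type. The changes of -0.53 and -0.38 at day 3 and -0.67 and -0.66 at day 14 were not called (adjusted p = 0.129, 0.294, 0.0551 and 0.0537). The 3 probes of Psmd9 gave -1.80 to 0.74 at day 14 in knockout muscle, with 1 called higher and 1 lower, and -0.93 to 0.59 at day 14 in wild type, with 1 called lower, so its direction at day 14 depends on the probe. At day 3 all 3 were below 0 in both genotypes, with 1 called lower in wild type muscle.

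Psme3ip1, a nuclear protein that binds Psme3, rose at day 3 in wild type and at day 14 in both genotypes. At day 3 Psme3ip1 stood at 10.92, 10.75 and 10.94 in denervated against 10.64, 10.57 and 10.81 in control knockout muscle, and at 11.38, 11.14 and 11.07 in denervated against 10.74, 10.60 and 10.88 in control wild type muscle. At day 14 Psme3ip1 stood at 11.47, 11.79 and 11.62 in denervated against 10.56, 10.53 and 10.40 in control knockout muscle, and at 11.65, 11.70 and 11.78 in denervated against 10.56, 10.51 and 10.53 in control wild type muscle. The day 14 denervated samples lay well above their controls in both genotypes, and at day 3 the knockout samples overlapped. It was 2.19-fold higher in knockout and 2.26-fold in wild type muscle at day 14 (adjusted p = 1.57e-07 and 6.57e-08), with log2 changes of 0.20 and 0.46 at day 3 (0.204 and 0.00393). Psmc3ip, the other gene named as an interaction partner, encodes a protein of meiotic recombination. It was lower at day 3 in knockout muscle (-0.79, adjusted p = 0.00473), a call lost with median centring and without replicates 2 and 3 of the denervated group.

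In denervated muscle at day 3, 11 of 45 proteasome genes were lower and 0 higher in knockout muscle, where 7.17% of all genes were called, 3.38% lower and 3.78% higher, and the median difference was -0.38, beside 0.03 for all genes. The 11 comprised 8 of 13 constitutive core subunits, 3 of 17 subunits of the regulatory particle and 0 of 15 in the remaining classes of immune subunits, activators, assembly factors and others. The median difference was -0.46 over the core and -0.21 over the regulatory particle. In this comparison 5 of 17 skeletal muscle markers were higher and none lower in knockout muscle, and 0 of 18 leukocyte markers were higher and 1 lower. The summed intensity of the muscle markers was 616300 to 697600 in knockout and 566900 to 598100 in wild type muscle, that of the leukocyte markers 19740 to 39890 and 33310 to 39930, and their part in the result was not tested. The core genes were Psma1 (-0.67), Psma2 (-0.46), Psma4 (-0.38), Psma7 (-0.72), Psmb2 (-0.60), Psmb3 (-0.61), Psmb4 (-0.39) and the catalytic Psmb5 (-0.63), and the others were the ATPases Psmc2 (-0.63) and Psmc4 (-0.52) and the deubiquitinase Psmd14 (-0.84). Adjusted p-values ran from 0.00259 for Psma7 to 0.0481 for Psmb4.

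All 3 knockout samples lay below all 3 wild type samples for 24 of the 45 genes and above them for 0, where 11.8% and 13% of all genes did so. No call of the 11 held under every alternative. Without replicates 2 and 3 of the denervated knockout group, and with the number of detected probes as a covariate, 0 of the 45 genes were called, while the median difference of the constitutive subunits was -0.34 and -0.44 in these fits, beside -0.38. Leaving out 1 array gave 5 to 18 calls: 18 without replicate 1 of the knockout group, of which 17 were lower, 6 and 5 without its replicates 2 and 3, and 7, 7 and 6 without replicates 1, 2 and 3 of the wild type group. Replicate 1 is the knockout array with the fewest detected probes of its group, 17055.

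In control muscle at day 3, where 0.521% of all genes were called, 0.327% lower and 0.194% higher in the knockout, no proteasome gene was called by limma, and 6, all lower in the knockout, had an unadjusted p under 0.05. At day 14 Psmd2 (-1.30, adjusted p = 0.0148) and Psmd5 (-0.75, 0.0355) were lower in knockout than in wild type control muscle, and none was higher, where 5.51% of all genes were called, 2.57% lower and 2.94% higher. Each of these 2 calls was lost in 4 of 6 fits without 1 array. In denervated muscle at day 14 Psmb8 was the 1 gene called between knockout and wild type, where 6.92% of all genes were called, 2.7% higher and 4.21% lower. It was higher in the knockout by 1.08 ± 0.29 SE on the log2 scale (adjusted p = 0.0312), with all 3 knockout samples (8.50 to 9.54) above all 3 wild type samples (7.69 to 7.87), and the call was lost in 4 of 6 fits without 1 array, at up to 0.136.

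**Figure D5:**
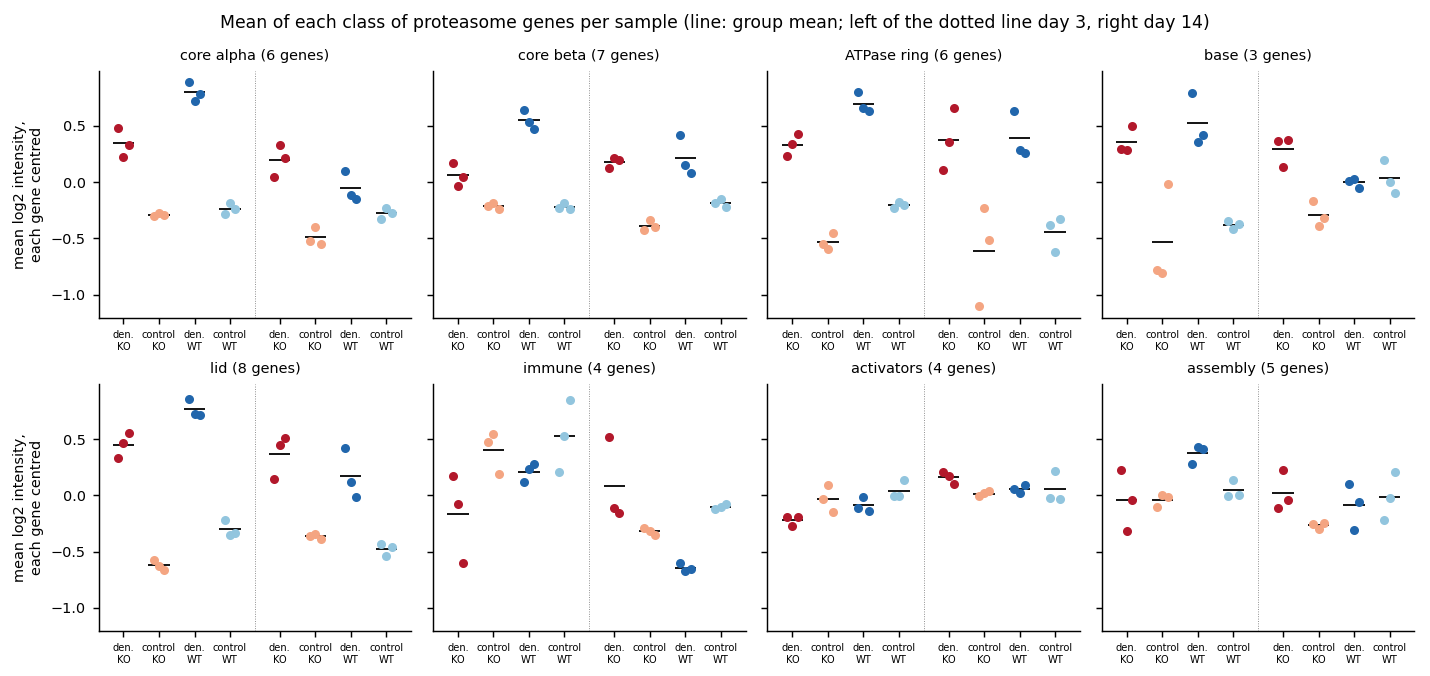
Mean gene-centred log2 intensity of the genes of each class in each of the 24 samples, for the 8 classes from alpha ring to assembly factors, with denervated left of control within each genotype and day. The 3 day 3 denervated wild type samples are the highest for the alpha ring, the beta ring and the lid. In the ATPase ring and the rest of the base their range overlaps that of other denervated muscle, and they are not the highest for the immune class.

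The denervation response itself differed between genotypes for 1 gene at day 3 and 8 genes at day 14, tested as the interaction of genotype and denervation. At day 3 Psma7 rose less in knockout than in wild type muscle (difference of log2 changes -0.80 ± 0.18 SE, adjusted p = 0.0413), where 1.08% of all genes were called, 0.433% with a lower response and 0.645% with a higher one. This call was lost in 10 of 12 fits without 1 array and without replicates 2 and 3 of the denervated knockout group. The median of the 13 constitutive core subunits was -0.44 and that of the 17 regulatory subunits -0.06, beside 0.03 for all genes.

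At day 14, 7 genes had a higher response in knockout muscle and 1 a lower one, where 12.5% of all genes were called, 4.58% higher and 7.93% lower. With median centring the counts were 2 and 1, where 253 of all 11317 genes were called higher and 1049 lower. Psmd2 differed most, at 2.12 ± 0.41 SE on the log2 scale (adjusted p = 0.00295), followed by Psmb8 at 1.57 ± 0.42 (0.0197), and these 2 calls held in every alternative run. Psme2 (0.89, 0.0405), Psme1 (0.825, 0.0259), Psma1 (0.78, 0.0274), Psmc2 (0.74, 0.0372) and Psma7 (0.74, 0.0116) had higher and Psme3 (-0.53, 0.0457) a lower response in the knockout. Of 12 fits without 1 array, 10 lost Psme2, 5 Psme1, 6 Psma1, 9 Psmc2, 0 Psma7 and 11 Psme3, and Psma7 was lost with median centring (0.56, adjusted p = 0.065). The 5 interferon-inducible genes had a median of 0.89 with 3 called, and the 30 constitutive subunits a median of 0.20 with 4 called, beside -0.02 for all genes. In the same comparison 3 of 18 antigen-presentation and interferon-induced genes had a higher response, namely B2m (1.22), Ifit3 (1.74) and Irf1 (1.31), and 2 of 18 leukocyte markers did so, whose part in the result was not tested.

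Between days the response of wild type muscle declined for 9 genes and grew for 1, tested as the interaction of day and denervation, where 13.7% of all genes were called, 6.2% with a lower and 7.46% with a higher response at day 14. All 9 were constitutive subunits. They were Psma1 (-0.95), Psma3 (-0.56), Psma4 (-0.55), Psma5 and Psma7 (-0.71) of the alpha rings, Psmb3 (-0.64), the scaffold Psmd2 (-2.35) and the lid subunits Psmd8 (-0.585) and Psmd14 (-0.92), with adjusted p-values of 0.000749 for Psmd2 and 0.000798 for Psma5. No size is given for Psma5, which was detected on no array of 3 of the 4 groups compared. The median over the 30 constitutive subunits was -0.47, and Psme3ip1 was the gene whose response grew (0.72, adjusted p = 0.00615). Of the 10 calls 7 held under every alternative, and those of Psma4, Psmb3 and Psme3ip1 did not.

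In knockout muscle 7 genes had a higher and 5 a lower response at day 14 than at day 3, where 20.6% of all genes were called, 9.12% higher and 11.5% lower. With median centring, which moved the median of all genes to -0.51, the counts were 1 and 12, and without replicates 2 and 3 of the day 3 denervated group 2 genes, Psme2 and Psme3ip1, were called. The higher ones included 4 of the 5 interferon-inducible genes, Psme2 (1.65), Psmb8 (1.36), Psmb10 (1.08) and Psme1 (1.08), besides Psma7 (0.82), Psmb2 (0.52) and Psme3ip1 (0.93). The lower ones were Psmc6, with no size given because no day 3 control array of the knockout detected it, Psme4 (-0.99), Psmd1 (-0.89), Psma3 (-0.64) and Psmd8 (-0.53).

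Control muscle also differed between days, taken over both genotypes. At day 14, 3 genes were higher and 10 lower than at day 3, where 41.4% of all genes were called, 23.5% higher and 17.9% lower, and with median centring the counts were 28 and 1. No call held with the number of detected probes as a covariate. Day 3 control arrays detected 15532 to 16718 probes in knockout and 15693 to 16058 in wild type muscle. Day 14 control arrays detected 17125 to 17882 and 16875 to 17812, and the part of this in the result was not tested. The 10 lower ones with quantile normalization included Psmb8 (-1.26), Psmb9 (-0.92), Psmb10 (-0.77) and Psme2 (-0.67), and 11 of 18 leukocyte markers were lower as well. The 3 higher ones were Psmd1 (0.58), Psme3 (0.54) and Psme4 (0.32).

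Proteins that work with the proteasome but lie outside these symbols were taken from a list chosen with earlier results of these data known, of which 16 of 23 were measured. At day 3, 7 rose and 1 fell in knockout muscle (median log2 change 0.47) and 9 rose in wild type (0.45). At day 14, 5 rose and 2 fell in knockout muscle (0.16) and 9 rose in wild type (0.56). Nploc4, a cofactor of the segregase Vcp, rose in all 4, by 1.15 and 1.53 at day 3 and 1.01 and 1.46 at day 14 in knockout and wild type muscle. Usp14, the deubiquitinase that docks on Psmd2, rose by 1.37 and 1.19 at day 3 and by 1.05 at day 14 in wild type, with 0.54 and no call at day 14 in knockout muscle. Pomp, the maturation factor of the core, rose by 0.40 at day 3 in wild type and by 0.90 and 0.93 at day 14, with 0.02 and no call at day 3 in knockout muscle. Vcp rose by 0.83, 0.63 and 0.79 in day 3 knockout, day 3 wild type and day 14 wild type muscle, and Txnl1, a thioredoxin-like protein bound to the regulatory particle, and Zfand5, a ubiquitin-binding activator of the proteasome, fell in day 14 knockout muscle (-1.73 and -0.69).

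Of 12 measured regulators of proteasome gene transcription out of 15 listed, 6 rose and 1 fell at day 3 in knockout muscle (median log2 change 0.49) and 5 rose and 1 fell in wild type (0.37). At day 14, 3 rose in knockout muscle (0.23), and 5 rose and 1 fell in wild type (0.24). Nfe2l1, the factor of the antioxidant response element that induces proteasome genes, rose by 0.84 and 0.50 at day 3 and by 0.55 at day 14 in wild type muscle, with 0.24 and no call at day 14 in knockout muscle. Its relative Nfe2l2 rose at day 3, by 1.30 and 0.97. Stat3 rose in all 4 comparisons, by 1.67 and 1.33 at day 3 and 0.77 and 1.26 at day 14 in knockout and wild type muscle. Nfyb, a subunit of the factor of the CCAAT box, fell by less (-0.38 and -0.39 at day 3, and -0.39 at day 14 in wild type). These lists stand beside the 45 genes as measurements, and no relation between them was tested.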

How the data were processed

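RNA of 24 triceps surae samples was read on 1-colour Illumina BeadChips. Each array has, per the file headers of the table without normalization, an intensity and a detection p-value for 46632 probes, which the authors exported from BeadStudio 3.2.3, per the submitters' processing notes. From the values the deposited intensity is linear, not background-subtracted and not normalized between arrays, and the detection p-value lies between 0 and 1. The processed intensity values that the authors deposited served as an alternative, as log2 of the value plus 16 with negative ones at 0.

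With limma 3.58.1 (R 4.3.3), neqc corrected the background by the detection p-values, added an offset of 16, normalized by quantiles and took log2. Probes with a detection p under 0.05 on at least 3 of 24 arrays were kept (21997), and names came from the platform annotation, which gave 29976 probes 1 symbol, 10 several and 16646 none. Entrez identifiers tied 29921 probes to current genes. The named probes kept numbered 16314, and the brightest of each gene gave 11317 genes, 3610 of them with more than 1 kept probe. The number of arrays limits the precision, with a median SE of 0.19 for a log2 change between 2 groups and 0.268 for an interaction.

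The limma model had 8 group means over all arrays, which left 16 residual degrees of freedom, and 13 contrasts were tested two-sided with Benjamini-Hochberg adjustment over all genes at 0.05. The fit was tested on simulated data. For a gene undetected on every array of a group, the fold is a bound against the higher of that array's dimmest detected signal and the probe's own. Described with a value for every sample were the genes with the largest change of their class, those called against most of their class, those called in an interaction of genotype and denervation, and, chosen after their values were seen, Psmb5, Psmc6, Psmd8, Psmd14, Psme4 and Psmb9 at day 14. The genes and lists were chosen with earlier results of these data known. Alternatives covered normalization, background, filter, probe choice, source table, samples in the fit, array weights, the number of detected probes as a covariate, a replicate block and each array left out. Leaving out 2 arrays together was chosen after seeing the data.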

Additional observations from a re-analysis of the deposited data

Results flagged for a closer look

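The genes given here differed between genotypes or days in their response to denervation, each by the test of the difference itself in limma at an adjusted p under 0.05, with no explanation weighed. At day 3 the response of Psma7 was lower in knockout than in wild type muscle by a log2 difference of -0.80.

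At day 14 the response in knockout minus that in wild type muscle was 0.78 for Psma1, 0.74 for Psma7, 1.57 for Psmb8, 0.74 for Psmc2 and 2.12 for Psmd2. It was 0.825 for Psme1, 0.89 for Psme2 and -0.53 for Psme3. For Psmd2, Psmb8, Psma1, Psme1 and Psme3 the denervation changes of the genotypes had opposite signs or lay on either side of 0, as given above per sample.

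In wild type muscle the response at day 14 minus that at day 3 was -0.95 for Psma1, -0.56 for Psma3, -0.55 for Psma4, -1.60 for Psma5 and -0.71 for Psma7. It was -0.64 for Psmb3, -0.92 for Psmd14, -2.35 for Psmd2, -0.585 for Psmd8 and 0.72 for Psme3ip1. In knockout muscle this difference was -0.64 for Psma3, 0.82 for Psma7, 1.08 for Psmb10, 0.52 for Psmb2, 1.36 for Psmb8 and -1.53 for Psmc6. It was -0.89 for Psmd1, -0.53 for Psmd8, 1.08 for Psme1, 1.65 for Psme2, 0.93 for Psme3ip1 and -0.99 for Psme4. The knockout differences use the day 3 denervated group in which 2 arrays detected more probes than all other day 3 arrays, and without these arrays those of Psme2 and Psme3ip1 were called. The fitted values of Psma5 in wild type and Psmc6 in knockout muscle are not sizes of change, since at least 1 group in each was detected on no array. Groups of 3 samples were not tested for outlying samples.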

How the results depend on the processing

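The number of proteasome genes called after denervation stayed within 1.5 times its main value under every alternative run in wild type muscle at both days and in knockout muscle at day 14. At day 3 in knockout muscle 28 calls became 13 with the number of detected probes as a covariate and 16 without its replicates 2 and 3, the 2 arrays of most detected probes. Between knockout and wild type in denervated muscle at day 3, 11 calls became 7 with median centring, 5 with only the samples of that day, 24 with array weights, and 0 both with the covariate and without the 2 arrays. In denervated muscle at day 14, 1 call became 5 without background subtraction, 2 with a stricter filter, 0 with the mean of probes, 4 with only the samples of that day, 14 with array weights and 8 with the covariate. In control muscle 0 calls at day 3 became 2 with array weights, and 2 calls at day 14 became 1 with median centring, 5 without background subtraction, 4 with the mean of probes and 5 with array weights. The genotype by denervation interaction at day 3 went with its 1 call to 0 with median centring, only the samples of that day, the covariate and without the 2 arrays, and to 4 without background subtraction, 3 with a stricter filter, 2 with the mean of probes and 12 with array weights. At day 14 its 8 calls became 3 with median centring, 14 with array weights and 14 with the covariate. The day by denervation interaction in knockout muscle had 12 calls, 7 with the covariate and 2 without the 2 arrays. Control muscle at day 14 against day 3 had 13 calls, 29 with median centring, 20 with array weights and 0 with the covariate. Psmc3ip reversed to 0.0376 with the covariate, and Psme4 to -0.0203 with the covariate and -0.0130 without the 2 arrays, both at day 3 in knockout muscle. The cause of these changes was not tested.

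Leaving out 1 array at a time gave 25 to 28 calls at day 3 and 25 to 29 at day 14 in knockout muscle, and 31 to 34 and 20 to 23 in wild type. It gave 5 to 18 calls between genotypes in denervated muscle at day 3 and 0 to 3 at day 14, 0 to 2 in control muscle at either day, 0 to 8 and 3 to 10 for the genotype by denervation interactions at day 3 and day 14, 8 to 12 and 7 to 20 for the day by denervation interactions in wild type and knockout muscle, and 10 to 14 between control days. Median centring in place of quantile normalization moved the median log2 change of all genes to 0.452 and 0.188 at day 3 in knockout and wild type muscle, and to 0.121 at day 14 in wild type. Relative to this, the median of the 45 genes was 0.378 and 0.714 at day 3, against 0.412 and 0.621 with quantile normalization. It moved the share of higher among all genes called from 56.5% to 90.9% at day 3 in knockout muscle and from 53.2% to 76.6% in wild type.

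Replicate numbers are shared by the groups, but same-numbered samples did not deviate together (median correlation of deviations 0.0256, from -0.127 to 0.388 over 12 pairs, 1 of them above 0.1), so the numbers were not taken as pairs. With a replicate block the counts were 27 and 30 at day 3 and day 14 in knockout muscle, 34 and 24 in wild type, 8 and 1 between genotypes in denervated and 0 and 2 in control muscle, 1 and 8 for the interactions of genotype, 10 and 12 for those of day in wild type and knockout muscle, and 12 between control days. The BeadChip could not be used as a block because the headers name no chip. Over single genes and alternatives, 8511 results stayed called in the same direction or stayed uncalled, 237 gained a call and 328 lost it. A further 3, called in at least 1 of the fits compared, changed sign. Changes of sign among results uncalled in both fits were not counted.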
